A study of Mus musculus with 6 samples.

Results

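The genes described here encode the peptide hormones, granins and serotonin-making enzyme of enteroendocrine cells, the hormone-secreting cells of the gut epithelium. They were chosen by name as a list of 10 genes: Chga, Chgb, Gcg, Cck, Pyy, Sct, Nts, Gip, Sst and Tph1. The deposited table held 12388 genes, and 9 of the 10 were among them. Tph1 is not analysed here. All 9 passed the filter on low values, an average of 0.5 FPKM or more over the 6 samples (FPKM are fragments scaled to transcript length and library total). RNA from small intestine of C57BL/6 mice aged 8 weeks was sequenced in 3 samples from the I/R group (replicates 6, 7 and 9) and 3 samples from the sham group (replicates 1, 3 and 5). In intestinal I/R (ischemia/reperfusion), the superior mesenteric artery was clamped and then reopened, whereas the artery of sham mice was not blocked. The labels name no genetic change and no stretch of the small intestine. They also leave out whether the samples of a group came from different mice, so the p-values speak only of the spread among these 6 samples.

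Enteroendocrine cells are scattered singly among enterocytes, sense the contents of the lumen and release peptides or serotonin from dense-core granules that the granins help to form. The hormones they make differ along the gut. Gip, Cck and secretin are made mainly in the duodenum and jejunum, whereas peptide YY, neurotensin and the glucagon-like peptides, cleaved from the product of Gcg, are made in larger amounts towards the ileum and colon. In bulk tissue, fewer hormone cells and less hormone RNA per cell cannot be told apart.

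The promoters of a proximal pair, Gip and Cck, and of the distal gene Pyy are shown because these were the 3 genes with an unadjusted limma p below 0.05 for a slope on gut position, as described with the position markers. The sequences are from RefSeq (GRCm38.p6), 250 bases up to the transcription start, 5′ to 3′ along the gene. Capitals mark AGATAA, a motif of the GATA factors, of which Gata4 is made in the proximal and not the distal small intestine. Gata4 is also one of the proximal markers that set gut position here, by which these 3 genes were picked. The motif is therefore a description and no separate support for the slopes. TATAAA, the TATA box, and TGACGTCA, the cyclic AMP response element, were searched too, on both strands, and had no match in these 3 windows. The E-box CANNTG, where N is any base, was also searched. It matched in all 3 windows and is not in capitals.
Gip promoter, chr11:96024295-96024544, plus strand: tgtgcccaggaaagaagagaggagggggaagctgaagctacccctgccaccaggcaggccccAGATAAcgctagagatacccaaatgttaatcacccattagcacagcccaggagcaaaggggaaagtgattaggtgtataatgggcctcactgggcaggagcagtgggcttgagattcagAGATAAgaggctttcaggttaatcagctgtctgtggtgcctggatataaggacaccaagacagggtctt
Cck promoter, chr9:121495695-121495944, minus strand: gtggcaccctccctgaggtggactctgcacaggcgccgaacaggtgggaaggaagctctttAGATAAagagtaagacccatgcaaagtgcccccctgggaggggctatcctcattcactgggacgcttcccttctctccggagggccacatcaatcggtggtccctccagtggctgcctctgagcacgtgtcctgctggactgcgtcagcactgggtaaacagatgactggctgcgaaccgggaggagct
Pyy promoter, chr11:102107833-102108082, minus strand: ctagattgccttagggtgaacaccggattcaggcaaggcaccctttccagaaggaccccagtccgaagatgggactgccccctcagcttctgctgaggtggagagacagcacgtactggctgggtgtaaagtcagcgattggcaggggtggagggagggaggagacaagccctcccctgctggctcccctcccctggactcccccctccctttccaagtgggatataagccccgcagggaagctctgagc
Gip held AGATAA at -188 and -69 and Cck at -189, counted from the start site, whereas the Pyy window had no match. Over the full windows, 250 bases before to 50 after the start, AGATAA was in 11.2% of all 32851 promoters, TATAAA in 13.6% and TGACGTCA in 1.79%. CANNTG was in 72.3% of them. All 10 genes matched a RefSeq promoter, in 12 entries. TGACGTCA was at -72 in Chgb and at -48 in Sst, TATAAA at -72 and -24 in Gcg, at -28 in Sct and at 5, after the start, in Chga, and AGATAA at -131 in Nts. A match describes the letters in the window and does not show a bound site.

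The first comparison asked whether intestinal I/R changed the RNA of the hormone and granin genes. Differences were taken as I/R minus sham of log2(FPKM + 1), a scale on which low genes change less than their true fold, and adjusted p-values are from limma over all 12006 genes tested. None of the 9 genes passed the adjusted threshold of 0.05, beside 4 genes in all (0.0333%). At an unadjusted limma p below 0.05 there were 0 of 9, beside 1073 genes (8.94%). I/R and sham did not overlap in 1 of the 9 genes, Cck, beside 1981 genes (16.5%). Of the 9 genes, 5 had a higher and 4 a lower mean log2 value in I/R, and the median log2 fold change was 0.05, against 0.12 over all genes tested. Their limma adjusted p ranged from 0.563 to 0.988. Single libraries stood apart from their group: I/R 9 had the most proximal and sham 1 the most distal gut markers, and sham 5 had the highest summed Paneth cell markers, 9 of 12 of them highest there. Differences whose sign turned without 1 library are therefore also given without it, and for the other genes the range with each library left out in turn. FPKM hold no read counts, so the depth behind each value is unknown.

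**Figure D1:**
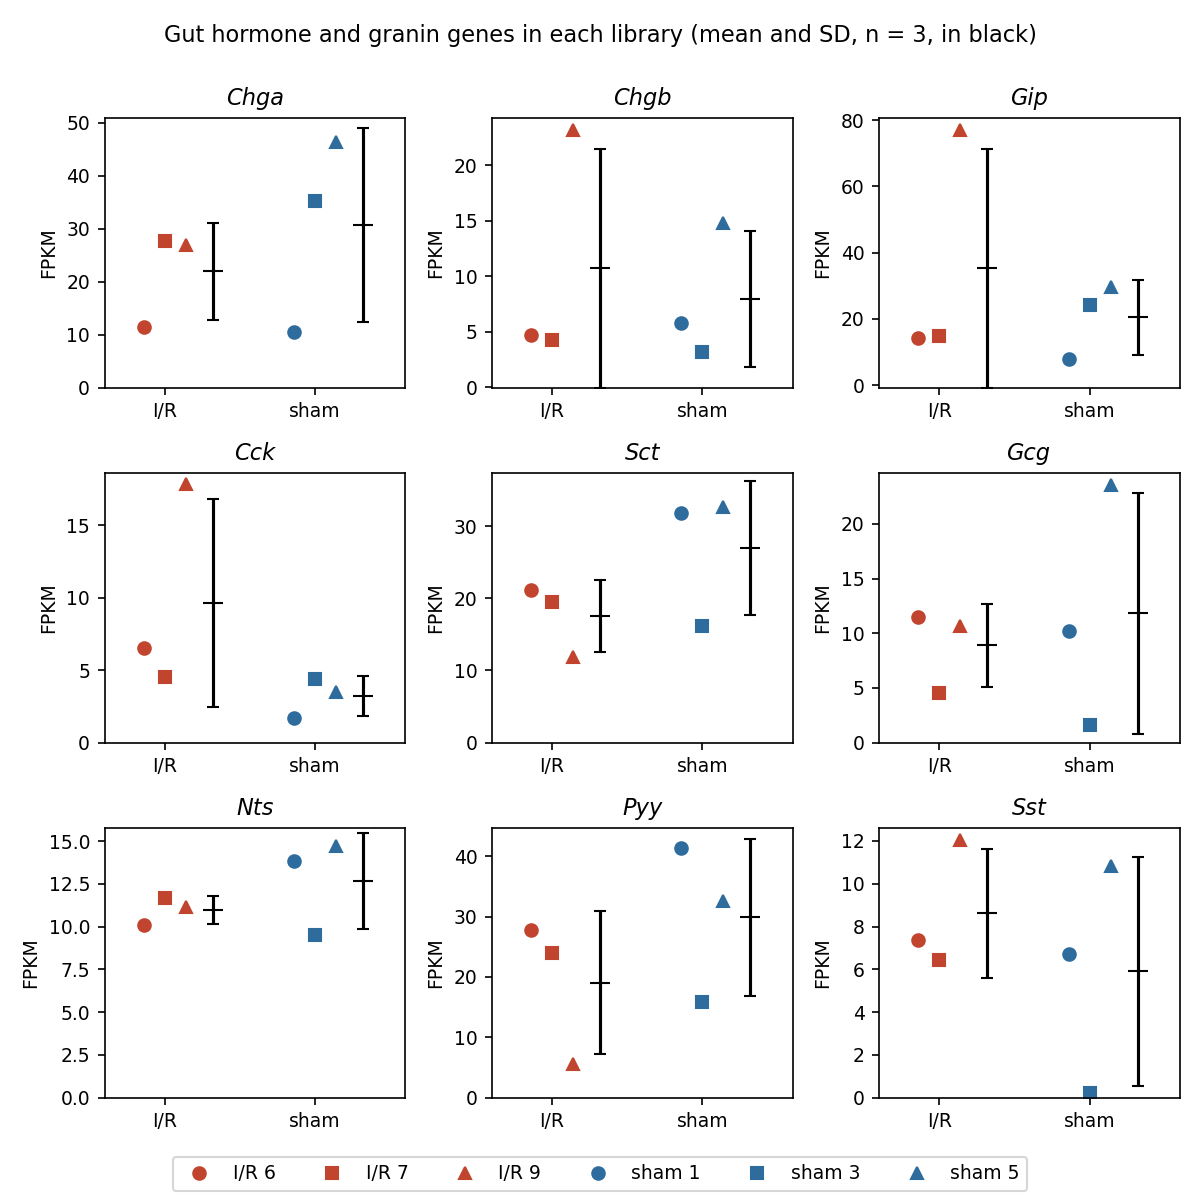
FPKM (vertical axes) of the 9 genes in each library, I/R on the left and sham on the right of each panel, with the group mean and SD (n = 3 each) in black. Cck is the gene whose groups do not overlap, and Gip, Cck and Pyy of I/R 9 stand away from the other I/R libraries.

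Granins came first. Chga (chromosome 12, 102554969 to 102565028 in mm10) encodes chromogranin A, the acidic granule protein used as a general mark of enteroendocrine cells. The I/R replicates 6, 7 and 9 had 11.4, 27.6 and 26.9 FPKM, against 10.5, 35.3 and 46.4 FPKM in sham replicates 1, 3 and 5. I/R 6 and sham 1 were low and alike, and the other 4 libraries were higher, so the groups overlapped. The group means were 22.0 ± 9.18 FPKM in I/R and 30.7 ± 18.4 FPKM in sham (SD, n = 3 each). Their log2 difference was -0.33 ± 0.60 (SE, limma adjusted p = 0.861). Its direction rested on single libraries, since it was 0.07 without I/R 6 and 0.07 without sham 5.

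Chgb (chromosome 2, 132781278 to 132795079), the related chromogranin B, was at 4.74, 4.27 and 23.2 FPKM in I/R 6, 7 and 9, against 5.82, 3.17 and 14.8 FPKM in sham 1, 3 and 5. In each group a single library, I/R 9 or sham 5, was well above the others. The log2 fold change was 0.23 ± 0.73 (SE, limma adjusted p = 0.922), and turned to -0.48 without I/R 9 and to -0.21 without sham 3. The granins did not share a pattern: sham 3 was second highest for Chga and lowest for Chgb.

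Of the hormones of the upper small intestine, Gip (chromosome 11, 96024545 to 96030831) encodes the glucose-dependent insulinotropic polypeptide of K cells. Gip was at 14.1, 14.9 and 76.9 FPKM in I/R 6, 7 and 9, against 7.75, 24.1 and 29.5 FPKM in sham 1, 3 and 5. I/R 9 was far above all other libraries and sham 1 was the lowest. The means of 35.3 ± 36.0 FPKM in I/R and 20.4 ± 11.3 FPKM in sham (SD, n = 3 each) differed by less than the spread within I/R (log2 fold change 0.49 ± 0.76 SE, limma adjusted p = 0.829). Without I/R 9 the log2 fold change was -0.28, and without sham 1 it was -0.06.

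Cck (chromosome 9, 121489824 to 121495694), cholecystokinin, is the I cell hormone that releases bile and pancreatic enzymes. It was at 6.53, 4.55 and 17.8 FPKM in I/R 6, 7 and 9, against 1.70, 4.41 and 3.48 FPKM in sham 1, 3 and 5. All I/R values lay above all sham values, although I/R 7 and sham 3 were nearly equal. The means were 9.63 ± 7.16 FPKM in I/R and 3.20 ± 1.37 FPKM in sham (SD, n = 3 each), and their log2 difference was 1.20 ± 0.51 (SE, limma adjusted p = 0.563). The exact permutation p, 2-sided, was 0.1, the smallest that 3 against 3 samples allow. With each library left out in turn it ran from 0.68 without I/R 9 to 1.56 without I/R 7. Cck was higher in I/R under all 17 alternatives tried, between 0.39 and 1.56, and passed under none.

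Sct (chromosome 7, 141278330 to 141279133) encodes secretin, which drives pancreatic bicarbonate. Its 21.2, 19.5 and 11.8 FPKM in I/R 6, 7 and 9 stood against 31.9, 16.2 and 32.7 FPKM in sham 1, 3 and 5. Sham 1 and sham 5 were above all I/R libraries, whereas sham 3 was inside the I/R range. The log2 fold change was -0.57 ± 0.34 (SE, limma adjusted p = 0.632) and stayed negative under the 17 alternatives (-0.89 to -0.18). It was -0.33 without I/R 9 and -0.89 without sham 3, the ends of its range with 1 library left out.

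Of the hormones of the lower small intestine, Pyy (chromosome 11, 102106676 to 102107832) encodes peptide YY, an L cell hormone that slows gut transit and appetite. Pyy was at 27.8, 23.9 and 5.58 FPKM in I/R 6, 7 and 9, against 41.4, 15.8 and 32.5 FPKM in sham 1, 3 and 5. I/R 9 was the lowest and sham 1 the highest, the reverse of Gip. The means of 19.1 ± 11.8 FPKM in I/R and 29.9 ± 13.0 FPKM in sham (SD, n = 3 each) gave a log2 difference of -0.78 ± 0.63 (SE, limma adjusted p = 0.690). With each library left out in turn that difference ran from -1.17 without I/R 6 to -0.11 without I/R 9, and was -0.50 without sham 1.

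Gcg (chromosome 2, 62474530 to 62483650), the proglucagon gene of L cells, was at 11.5, 4.55 and 10.7 FPKM in I/R 6, 7 and 9, against 10.2, 1.65 and 23.6 FPKM in sham 1, 3 and 5. The lowest and the highest library were both sham, and I/R lay between them. The log2 fold change was 0.05 ± 0.81 (SE, limma adjusted p = 0.988), and turned to -0.16 without I/R 6, to -0.11 without I/R 9 and to -0.83 without sham 3. Although both are L cell genes, Gcg and Pyy parted in I/R 9, which was inside the range of the other libraries for Gcg and below it for Pyy.

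Nts (chromosome 10, 102481756 to 102490486), neurotensin, was the steadiest gene of the list, with 10.1, 11.7 and 11.2 FPKM in I/R 6, 7 and 9 against 13.8, 9.48 and 14.7 FPKM in sham 1, 3 and 5. The I/R libraries were nearly level and fell inside the sham range. Its highest library exceeded its lowest 1.55-fold, and the log2 fold change was -0.17 ± 0.22 (SE, limma adjusted p = 0.792). That difference was -0.35 without sham 3, -0.10 without sham 1 and -0.06 without sham 5. Among the other genes that ratio ran between 2.76 for Sct and 60.5 for Sst.

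Sst (chromosome 16, 23889573 to 23890958) encodes somatostatin, the inhibitory peptide of D cells, and is also made by enteric neurons. It was at 7.37, 6.43 and 12.0 FPKM in I/R 6, 7 and 9, against 6.71, 0.199 and 10.8 FPKM in sham 1, 3 and 5. Sham 3 was almost without Sst and the other 5 libraries were within the same range. The log2 difference of 0.97 ± 0.83 (SE, limma adjusted p = 0.702) rested on that library, being -0.03 without sham 3. Sham 3 was also the lowest library for Gcg, Chgb and Nts.

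Levels per length could be put in order within each group. By mean FPKM the order in I/R was Gip (35.3), Chga (22.0), Pyy (19.1), Sct (17.5), Nts (11.0), Chgb (10.7), Cck (9.63), Gcg (8.90) and Sst (8.62). Of these neighbours, only Sct and Nts were further apart than the larger of their SDs. In sham it was Chga (30.7), Pyy (29.9), Sct (26.9), Gip (20.4), Nts (12.7), Gcg (11.8), Chgb (7.94), Sst (5.90) and Cck (3.20), and no neighbours were further apart than the larger SD.

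Several genes were listed as more than 1 transcript. Pyy had 2, of which the 555-base form held 63.0% to 79.0% of its FPKM in every library. Sct had 3, with 60.5% to 80.6% on the 507-base form, and Gcg had 2, with 79.6% to 100% on the 1088-base form. The same transcript led in all 6 libraries for each of these 3 genes, whereas the other 6 genes had 1 listed transcript each.

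Libraries that stood apart were examined next, because the hormones differ along the gut and the labels give no position. Position was read from marker genes as the mean log2(FPKM + 1) of 10 distal markers minus that of 14 proximal markers, none of them in the hormone list. The difference was 3.22 in sham 1, 1.94 in I/R 6, 1.53 in I/R 7, 0.82 in sham 5, 0.46 in sham 3 and -2.26 in I/R 9. The ileal bile acid binding protein Fabp6 was at 2903, 2396 and 5.76 FPKM in I/R 6, 7 and 9, against 5201, 956 and 1319 FPKM in sham 1, 3 and 5. I/R 9 thus had the most proximal and sham 1 the most distal marker pattern, and both groups were spread along this scale. I/R 9 was highest for 12 of the 14 proximal markers and lowest for 8 of the 10 distal ones, the same markers that set the difference. Of the other proximal markers, Slc40a1 was reversed, lowest in I/R 9 (1.06 FPKM) and highest in sham 1 (19.3 FPKM), and Treh was highest in sham 3. Of the other distal markers, Amn was lowest in I/R 6 and Nr1h4 in sham 5. In the fit on group alone, 10 of the 13 proximal markers tested were higher and 3 lower in I/R (median log2 fold change 0.31). Of the 10 distal markers, 2 were higher and 8 lower (median -0.53, against 0.12 over all genes), and 0 markers of either list passed. The position difference thus leaned with group. Whether the markers respond to I/R apart from gut position was not tested.

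In that order, most distal first, Gip was at 7.75, 14.1, 14.9, 29.5, 24.1 and 76.9 FPKM and Pyy at 41.4, 27.8, 23.9, 32.5, 15.8 and 5.58 FPKM. The ratio of Gip to Pyy was 0.187 in sham 1, 0.508 in I/R 6, 0.621 in I/R 7, 0.907 in sham 5, 1.52 in sham 3 and 13.8 in I/R 9. The ratio thus ranked all 6 libraries exactly as the markers did, with I/R and sham libraries interleaved. This ratio was chosen after its values were seen and is a description.

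**Figure D2:**
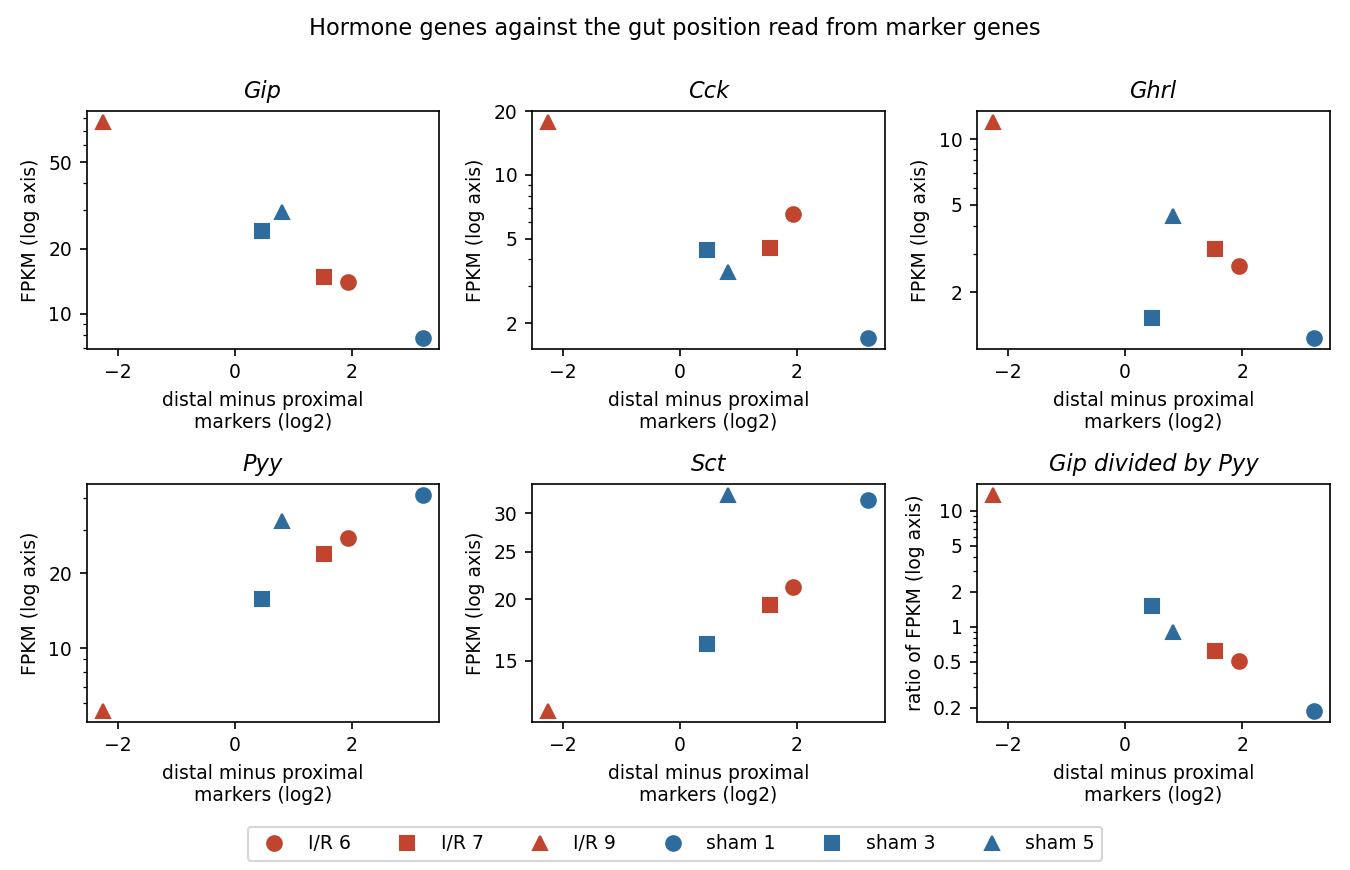
FPKM of 5 hormone genes and the ratio of Gip to Pyy (vertical log axes) against the distal minus proximal marker difference (horizontal, log2), 1 point per library with I/R in red and sham in blue. Gip, Cck and Ghrl are highest in I/R 9 at -2.26, where Pyy and Sct are lowest, and the ratio is 13.8 in I/R 9 and 0.187 in sham 1.

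A limma fit with group and the position difference as terms gave each gene a slope, in log2 units per unit of the difference. At an unadjusted limma p below 0.05 there were 3 of the 9 genes, beside 1646 genes (13.7%), and at an adjusted p below 0.05 none of the 9, beside 0 genes in all (0%). The slope of Gip was -0.59 ± 0.06 (SE, limma adjusted p = 0.0816), that of Pyy 0.46 ± 0.09 (0.154) and that of Cck -0.36 ± 0.07 (0.167). Chga and Chgb had slopes of -0.32 and -0.38 and Sct one of 0.19, with limma adjusted p between 0.393 and 0.454. Although described with the upper hormones, Sct thus had the sign of Pyy and not that of Gip and Cck. Gcg, Nts and Sst had slopes of 0.02, 0.02 and 0.03, with limma adjusted p of 0.920 or more. Gcg and Nts, described with the lower hormones, thus showed little slope on position.

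Since I/R 9 lay far from the other libraries, the slopes were refitted without it. That of Gip was then -0.61 ± 0.12 (SE, limma adjusted p = 0.169), that of Pyy 0.36 ± 0.16 (0.451) and that of Cck -0.31 ± 0.14 (0.464). Chga had -0.73 ± 0.19 (0.258), more than 1.5 times its slope with I/R 9, and Chgb -0.01 ± 0.32 (0.989), so that the slope of Chgb rested on I/R 9. At an unadjusted limma p below 0.05 there were now 2 of the 9 genes, Gip and Chga, beside 1501 genes (12.5%). Without sham 1 the slope of Chga was -0.16 and that of Gip -0.57.

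With the position term in the fit, the group difference of Cck was 0.80 ± 0.25 (SE, limma adjusted p = 0.319), against 1.20 in the fit on group alone. That of Gip was -0.15 ± 0.21 (limma adjusted p = 0.728), so its sign turned, and that of Pyy -0.27 ± 0.29 (0.653). Chga moved the other way, to -0.68 ± 0.50 (limma adjusted p = 0.529). Chgb turned to -0.18, and no gene of the list passed. With I/R 9 and sham 1, the libraries at the ends of the scale, both left out, Gip had a log2 fold change of -0.84 (limma adjusted p = 0.204) and Pyy one of 0.17.

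**Figure D3:**
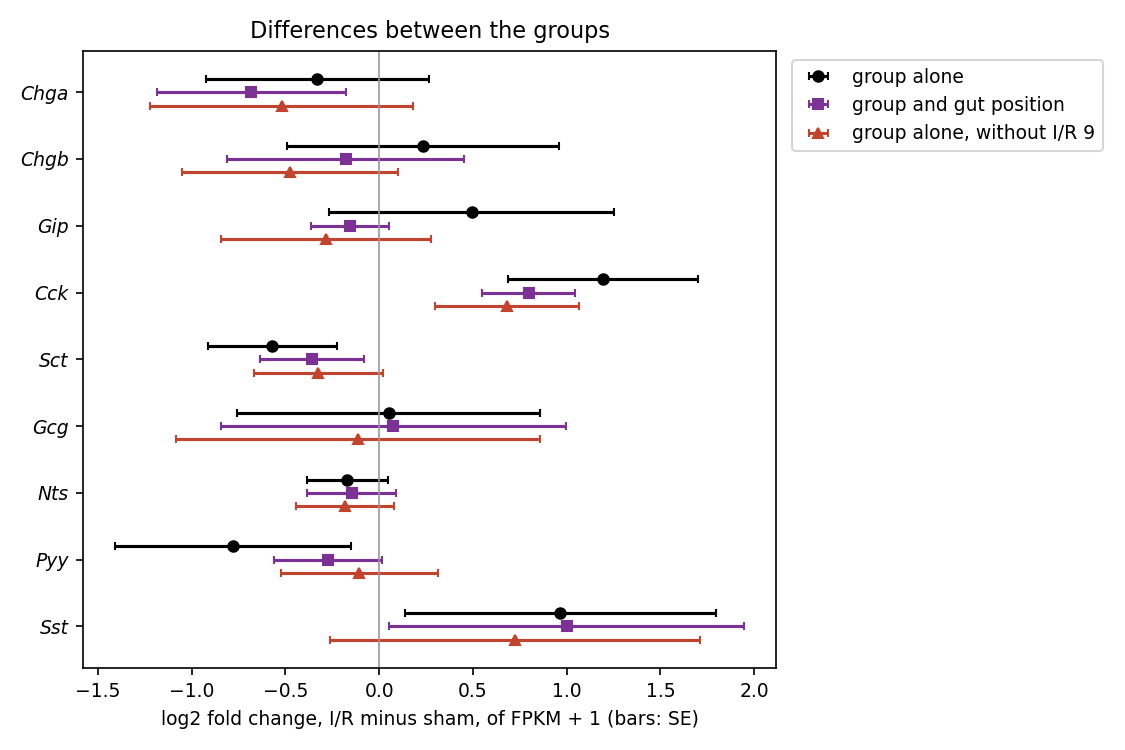
Log2 fold change, I/R minus sham (horizontal axis), of the 9 genes with group alone, with group and the marker position as terms, and with group alone after I/R 9 was left out. Bars are SE. Gip stands at 0.49 with group alone, -0.15 with position and -0.28 without I/R 9, whereas Cck stays above 0 at 1.20, 0.80 and 0.68.

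The makeup of the 7 peptide hormone genes, as shares of their summed FPKM, also differed between libraries. Pyy led in I/R 6 (28.2%), I/R 7 (28.0%) and sham 1 (36.5%). Gip led in I/R 9 (52.7%) and sham 3 (33.5%), and Sct in sham 5 (22.2%). No hormone therefore led throughout either group. The sums were 98.6, 85.5 and 146 FPKM in I/R 6, 7 and 9, against 113.5, 71.8 and 147 FPKM in sham 1, 3 and 5, so the totals overlapped.

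**Figure D4:**
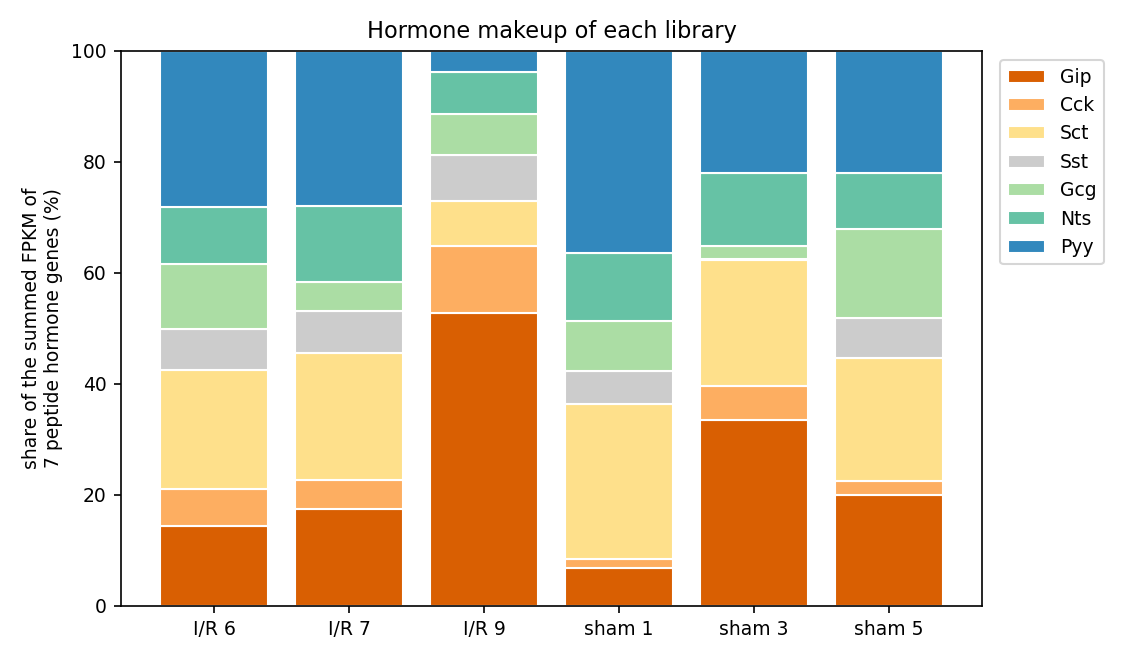
Share of each of 7 peptide hormone genes in their summed FPKM (vertical axis, %), 1 bar per library, I/R on the left. Gip takes 52.7% in I/R 9, the largest share of any hormone in any library, and Pyy leads in sham 1 with 36.5%.

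Other cells moved with some of these values. Sham 5 was the highest library for Chga, Gcg, Sct and Nts. The summed FPKM of 12 Paneth cell markers was 345, 143 and 130 in I/R 6, 7 and 9, against 90.2, 97.9 and 2471 in sham 1, 3 and 5, and sham 5 was the highest library for 9 of the 12. Lysozyme (Lyz1) was at 513 FPKM in sham 5 and at 6.41 to 40.6 FPKM elsewhere. The markers did not all go this way, since the defensin gene Defa22 was at 1.47 FPKM in sham 5 and at up to 26.3 FPKM elsewhere, Defa30 at 4.75 and up to 36.4 FPKM, and Pla2g2a at 10.8 and up to 12.5 FPKM. The part of this in the high hormone values of sham 5 was not tested. Of 20 pancreas markers, whose islets also make Gcg, Sst, Pyy and granins, 3 were in the table, without Ins1 or Ins2. Colipase (Clps), a pancreatic lipase cofactor, was at 102 FPKM in sham 5 and at 2.59 to 13.0 FPKM in the other libraries, but the other pancreas markers were not highest in sham 5: Ctrl was at 0.657 FPKM there and 0.876 FPKM in sham 1, and Cela1 at 4.02 and 4.52 FPKM. None of 13 stomach markers was in the table, and 3 of 8 colon markers were. The 16 pan-epithelial genes summed to 7398, 7853 and 8824 FPKM in I/R 6, 7 and 9, against 7248, 8452 and 7879 FPKM in sham 1, 3 and 5, so epithelial RNA overlapped between the groups.

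Serotonin genes were described from a list, with Tph1, whose enzyme makes the first step in enterochromaffin cells, not analysed here. Of 9 genes, 8 were in the table, 3 with a higher and 5 with a lower mean log2 value in I/R, and none passed (median log2 fold change -0.27, against 0.12 over all genes). Slc18a1, the transporter that loads serotonin into enterochromaffin granules, was at 1.10, 2.31 and 2.23 FPKM in I/R 6, 7 and 9, against 1.46, 3.58 and 2.79 FPKM in sham 1, 3 and 5. Like Chga, it was lowest in I/R 6 and sham 1. Ddc, which makes serotonin from its precursor, and Slc6a4, the transporter by which enterocytes take serotonin up, were chosen for the description after their values were seen. Ddc was at 15.0, 29.3 and 51.6 FPKM in I/R 6, 7 and 9, against 15.1, 34.4 and 121 FPKM in sham 1, 3 and 5. Slc6a4 was at 21.2, 35.5 and 54.5 FPKM in I/R, against 26.6, 51.0 and 49.1 FPKM in sham, in the same order. All 4 genes were thus lowest in the libraries with the most distal markers, sham 1 and I/R 6, and the groups overlapped for each.

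**Figure D5:**
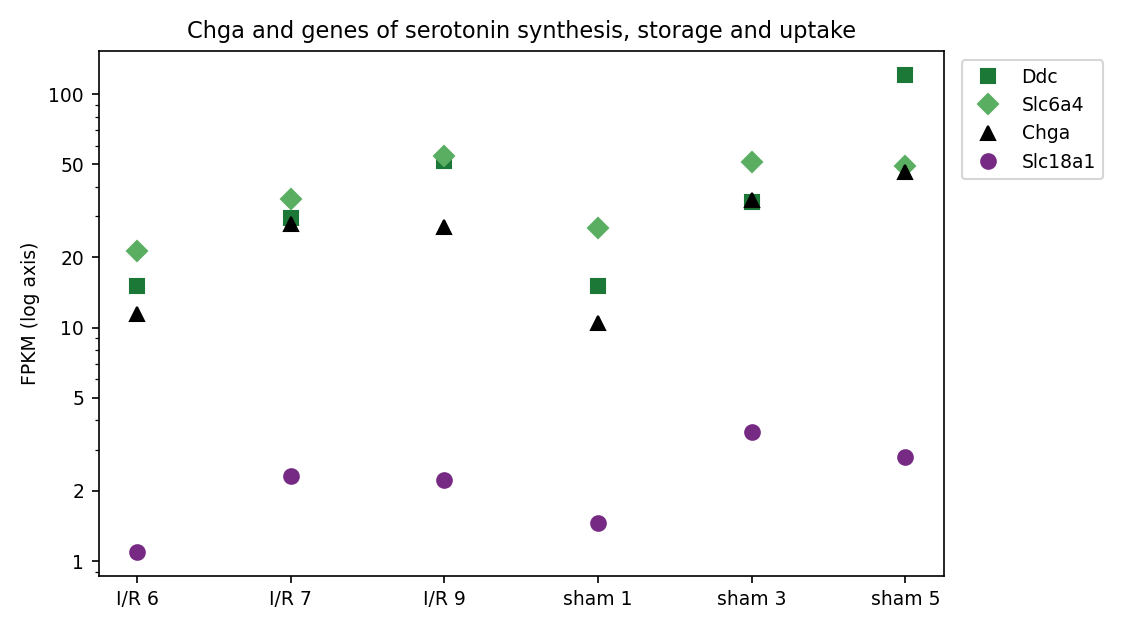
FPKM (vertical log axis) of Chga, the granule transporter Slc18a1, the synthesis enzyme Ddc and the uptake transporter Slc6a4 in each library, I/R on the left. In both groups the first library shown, I/R 6 or sham 1, is the lowest for all 4 genes. Ddc and Slc6a4 were chosen after their values were seen, and the other serotonin genes, which were mixed, are not shown.

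The wider set of enteroendocrine genes gave no call either. Outside the hormone list, 6 lists held 141 genes, of which 64 were in the table and 59 tested. Of these 35 had a higher and 24 a lower mean log2 value in I/R, 3 had an unadjusted limma p below 0.05 (5.08%, against 8.94% of all genes), and 0 passed (median log2 fold change 0.11, against 0.12 over all genes). Genes averaging under 0.5 FPKM in a group are listed only through the other group, which fixed the direction of their mean FPKM. Cartpt and Ffar1 are so listed through I/R, and Sytl4 and Ptprn2 through sham. The lowest limma adjusted p was 0.432, for Npy. Neuropeptide Y, of the same peptide family as peptide YY and known in gut mainly from neurons, was at 4.24, 4.18 and 1.70 FPKM in I/R 6, 7 and 9, against 0.872, 0.418 and 0.261 FPKM in sham 1, 3 and 5. All I/R values were above all sham values, beside 16.5% of all genes tested whose groups did not overlap. The log2 fold change of Npy was 1.48. Of 20 enteric neuron markers 12 were in the table, and they summed to 41.2, 35.4 and 13.5 FPKM in I/R, against 32.9, 12.3 and 10.4 FPKM in sham. The part of neurons in Npy was not tested.

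Of 22 other gut hormones and peptides, 11 were in the table and tested, 10 higher and 1 lower in I/R. Their median log2 fold change was 0.36, against 0.12 over all genes, and 0 passed. Among them, Ghrl (ghrelin), whose cells in the small intestine lie mostly in the duodenum, was at 2.64, 3.15 and 12.0 FPKM in I/R 6, 7 and 9, against 1.23, 1.52 and 4.45 FPKM in sham 1, 3 and 5. Like Gip and Cck it was highest in I/R 9 and lowest in sham 1. Its slope on position was -0.38 ± 0.12 (SE, limma adjusted p = 0.276), and -0.24 without I/R 9. In the list of prohormone processing and granule genes, 25 of 31 were in the table and 23 tested, 14 higher and 9 lower in I/R. Scg2, the granin secretogranin 2, was at 10.2, 8.90 and 3.43 FPKM in I/R 6, 7 and 9, against 5.49, 2.45 and 2.93 FPKM in sham 1, 3 and 5 (log2 fold change 0.83, limma adjusted p = 0.613, and 1.24 without I/R 9). Unlike Chgb, Scg2 was lower in I/R 9 than in the other I/R libraries, as was the neuron marker sum. Cpd, a carboxypeptidase that trims prohormones, was at 22.1, 5.31 and 4.13 FPKM in I/R, against 24.2, 18.3 and 22.1 FPKM in sham (log2 fold change -1.30, limma adjusted p = 0.563). I/R 6 lay inside the sham range of Cpd, and without it the log2 fold change was -1.97.

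Of 26 enteroendocrine transcription factors 8 were in the table and 6 tested, 3 higher and 3 lower in I/R. The nutrient sensors were fewer still, with 5 of 25 in the table. Ffar1, the long-chain fatty acid receptor of hormone cells, was at 2.23 and 1.26 FPKM in I/R 6 and 7 and listed at 0 in I/R 9, against 0.135 and 0.544 FPKM in sham 3 and 5 and listed at 0 in sham 1. An exact 0 in this table can be a failed estimate. Ffar1 averaged 0.226 FPKM in sham and is listed only through I/R, which fixed the direction of its mean FPKM. Of 28 genes of hormone receptors and peptide degradation, 7 were in the table and tested, 3 higher and 4 lower in I/R. Among them, the peptidases that cut hormones once released were more abundant than the nutrient sensors. Dpp4, which inactivates GIP and the glucagon-like peptide 1, was at 141, 165 and 169 FPKM in I/R 6, 7 and 9, against 189.9, 257 and 227 FPKM in sham 1, 3 and 5. Enpep, which trims cholecystokinin and angiotensin peptides, was at 417, 432 and 399 FPKM in I/R, against 573, 586 and 555 FPKM in sham. Both lay wholly below sham, beside 16.5% of all genes tested whose groups did not overlap. Both missed the adjusted threshold, with log2 fold changes of -0.49 for Dpp4 and -0.46 for Enpep (limma adjusted p = 0.541 and 0.533). Both were lower in I/R in all 18 fits. Mme, a peptidase of the same list, overlapped, with 37.4, 42.1 and 88.2 FPKM in I/R, against 39.8, 112 and 91.3 FPKM in sham. The log2 fold change was -0.51 for Mme and 0.13 for the peptidase Ece1.

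The genes most like each member over the 6 libraries were ranked among 6759 protein-coding genes that averaged 5 FPKM or more, by Pearson r of log2(FPKM + 1). With so few libraries these are descriptions. Gip was most like Rdh7, a retinol dehydrogenase (r = 0.989), and Mttp (0.986), which loads lipid onto chylomicrons. Mttp was at 239, 279 and 628 FPKM in I/R 6, 7 and 9, against 199, 387 and 379 FPKM in sham 1, 3 and 5. I/R 9 was the highest and sham 1 the lowest, as for Gip, by whose profile Mttp was picked. Pyy was most like Nr1d1, a repressor of the circadian clock (0.988), and Pof1b (0.985), and Cck most like Rpl13, a ribosomal protein (0.996), and the integrin Itga6 (0.991). Chga was most like Tlcd2 (0.992) and Lgals3bp (0.988), and Chgb like Acox2, a peroxisomal oxidase (0.996), and Sbno1 (0.976). For Gcg the genes were Cpt1a, the gate of fatty acid oxidation in mitochondria (0.989), and Hint2 (0.972), and for Sct they were Efr3a (0.983) and the amino acid transporter Slc6a20a (0.979). Nts was most like Apopt1 (0.979) and Mlec (0.968), and Sst like Stx12 (0.998) and Gapvd1 (0.994). Stx12 and Gapvd1 were lowest in sham 3, as was Sst, by whose profile they were picked. No gene was named for more than 1 member.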

How the data were processed

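Stranded RNA sequencing libraries were made from Trizol-extracted small intestine RNA of 3 I/R and 3 sham samples. The authors deposited FPKM per transcript. Per the submitters' processing notes, StringTie, HISAT2 2.0.4 and cutadapt were used with the build mm10. The annotation is not given in the sources used here. Of 19763 listed transcripts, 19702 matched GENCODE release M21 without their version, and 61 kept their identifier. FPKM were summed by gene identifier, a choice made once the rows proved to be transcripts. No listed transcript averaged under 0.5 FPKM in I/R and in sham alike, and others are not analysed here. FPKM sums of 315726 to 330814 per library do not give depth.

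I/R and sham were set against each other in limma 3.58.1 (R 4.3.3, eBayes with a trend, 2-sided) on log2(FPKM + 1) for the 12006 genes averaging 0.5 FPKM or more, with Benjamini-Hochberg adjustment, and the procedure was tested on simulated data. The position fit added the marker difference as a term and left 3 residual degrees of freedom. The members and gene lists were chosen with earlier results of these data known. Genes named were all members, up to 4 genes of each other enteroendocrine list by smallest p, up to 4 markers of each other list by mean FPKM, and the 2 genes most like each member. Other genes were named by their values and are outside these rules, such as Ddc, Slc6a4, Ece1, Fcgbp and markers that departed from the rest of their list. Alternatives were 3 scalings, pseudocounts of 0.1 and 0.5, a filter at 5 FPKM or none, no trend, the position term, the most abundant transcript and each library left out. Leaving out sham 1 and I/R 9 together, and all alternatives of the position slopes, were added after seeing the data.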

Additional observations from a re-analysis of the deposited data

How the results depend on the processing

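No hormone or granin gene and no gene of the other enteroendocrine lists passed the adjusted threshold under any of the 17 alternatives. The lowest limma adjusted p of a hormone gene was 0.204, for Gip without sham 1 and I/R 9 together. Over all genes, the 4 calls became 2 with median-ratio scaling, 1 with the position term and 11 without sham 1 and I/R 9 together, and 0 to 9 with 1 library left out. The cause was not tested. Median-ratio scaling took the median log2 fold change of all genes to 0.0089, against 0.12. No paired analysis was possible because the groups share no replicate number.

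Cck, Sct and Nts kept their direction throughout. Chga ranged from -0.95 to 0.0737 with 1 library left out, Chgb from -0.48 to 0.76, Gcg from -0.83 to 0.77, Gip from -0.28 to 0.90 and Sst from -0.0321 to 1.62. With the position term Chgb turned to -0.18 and Gip to -0.15, and without sham 1 and I/R 9 together Chgb was at -0.56, Gip at -0.84 and Pyy at 0.17. Gcg turned to -0.0637 with median-ratio scaling, -0.10 with quantile normalization, -0.0222 with scaling to the pan-epithelial genes and -0.0523 with the most abundant transcript. The position slopes of Gip, Pyy, Cck, Sct, Chga, Chgb and Ghrl kept their sign in all 13 fits. That of Gcg was -0.0121 and -0.0094 with median-ratio and quantile scaling, that of Nts -0.0174 with median-ratio scaling and that of Sst -0.0080 with quantile normalization, and with 1 library left out they ranged from -0.18 to 0.36, from -0.0172 to 0.0921 and from -0.19 to 0.52. Precision is limited by 3 samples a group and an unknown depth.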

Other observations

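Other secretory cell types of the epithelium were counted by the same fit. Of all 12006 genes tested, 7521 were higher and 4485 lower in I/R, with a median log2 fold change of 0.12. All 11 goblet cell markers were in the table, 1 with a higher and 10 with a lower mean log2 value in I/R (median log2 fold change -0.23), and 0 passed. The higher gene, Atoh1, was at 5.72 FPKM in I/R 9 and listed at 0, which can be a failed estimate, in all other libraries. Atoh1 is thus listed only through I/R, which fixed its direction. At an unadjusted limma p below 0.05 there were 2 of the 11, Muc2 and Fcgbp, beside 8.94% of all genes tested. Their log2 fold changes were -1.07 and -1.12 (limma adjusted p = 0.533 for both). Zg16, a mucus granule lectin, was at 1004, 413 and 560 FPKM in I/R 6, 7 and 9, against 1173, 579 and 1208 FPKM in sham 1, 3 and 5. Of 16 tuft cell markers 12 were in the table and 11 tested, 10 higher and 1 lower in I/R (median 0.43), and 0 passed. Of those tested, Trpm5 and Dclk1 averaged under 0.5 FPKM in sham (0.178 and 0.437 FPKM). They are therefore listed only through I/R, which fixed their direction. Ptgs1, the cyclooxygenase of tuft cells, was at 9.88, 6.00 and 4.93 FPKM in I/R, against 7.54, 4.08 and 3.27 FPKM in sham. Of 14 mast cell markers, a further source of serotonin in the mouse, 5 were in the table and 4 tested, 2 higher and 2 lower in I/R.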
